A study of Mus musculus with 2 samples.

Results

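The 10 genes described here, Egr1, Egr2, Egr3, Nr4a1, Nr4a2, Ier2, Ier3, Dusp1, Zfp36 and Socs3, are immediate early and feedback genes outside the AP-1 family. They were taken by name from the scanner files as the non-control probes that carry one of these gene names, which gave 11 probes, out of 39429 probes and 30011 genes on the array. Nr4a2 had a pair of probes and each other gene had 1. Signal was above background for 9 of the 10 genes, and these 9 are among the 19875 genes tested. The level of Egr3 was not measurable in any RNA.

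RNA labelled Gata6cKO came from ureters of NMRI mouse embryos at E14.5 with the genotype Tbx18(cre/+);Gata6(fl/fl), and RNA labelled control came from ureters of the same strain and stage with the genotype Gata6(fl/?). Both genotypes therefore carry at least 1 floxed copy of Gata6, a zinc finger transcription factor, and cre stands only in the Gata6cKO labels, so that loss of Gata6 cannot be told apart from an effect of cre or of the altered Tbx18 copy. Tbx18 encodes a T-box transcription factor made in ureteric mesenchyme, and cre placed in this locus acts in cells that express Tbx18 or descend from such cells. Each of the 2 two-colour arrays held 1 Gata6cKO and 1 control RNA, both male on the replicate 1 array (Gata6cKO in Cy5) and both female on the replicate 2 array (Gata6cKO in Cy3), so sex, dye orientation and array cannot be told apart. Whether an RNA came from 1 embryo or from a pool is not given in the labels, and the p-values rest on these samples only. The spread behind each p-value, SE and interval comes mostly from all tested genes together (12.2 prior degrees of freedom beside 1 residual). It is therefore not a measure of a gene's own difference between the arrays.

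Immediate early genes are switched on within minutes of a growth factor, cytokine or stress signal, from transcription factors that are already present, such as SRF with its partners at CArG boxes and CREB at cAMP response elements. Some encode transcription factors (the EGR zinc finger proteins and the NR4A orphan nuclear receptors) and some encode brakes on the same signals, such as the MAP kinase phosphatase DUSP1, the mRNA decay factor ZFP36 (tristetraprolin) and the JAK/STAT inhibitor SOCS3. Their transcripts are short-lived.

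Egr1, Nr4a1, Ier2, Dusp1 and Socs3 were higher in Gata6cKO ureters, by 1.40-fold to 2.00-fold, and 0 of the 9 tested genes were lower, at an adjusted p under 0.05 from limma. Over all tested genes the median log2 ratio of Gata6cKO over control was -0.00, and over the 9 members it was 0.49, with 0.52 (male array) and 0.34 (female array). In that fit, 5 of 9 members were higher against 2.22% of all 19875 tested genes, and 0 of 9 were lower against 2.36%. The members were chosen with earlier results of these data known, so the contrast with all tested genes is a description only. At an unadjusted p under 0.05 the counts were 6 higher and 1 lower of 9 members, against 5.25% higher and 6.1% lower of all tested genes. Both Gata6cKO intensities lay above both control intensities for 7 of 9 members, against 15.9% of all tested genes, and below them for 1 member, Egr2, against 17.6%. On the probes used in the fit, Zfp36 was the 1 member whose groups overlapped. Nr4a2 counts among the 7 by a narrow margin, 1686 in male Gata6cKO against 1681 in male control RNA. The groups overlapped on its other probe. In a tissue sample, a larger share of cells that express a gene and more RNA per cell cannot be told apart.

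**Figure D1:**
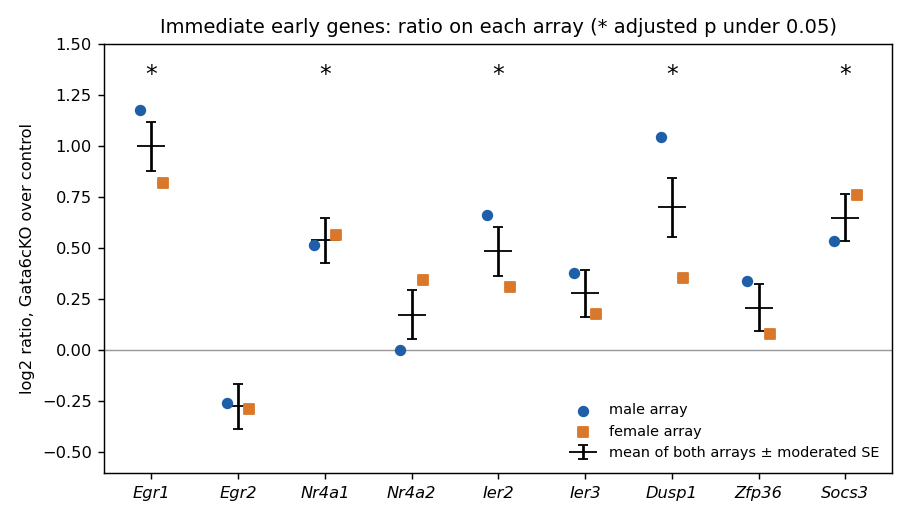
log2 ratio of Gata6cKO over control for the 9 tested genes, with the mean of both arrays, bars of 1 moderated SE from limma and the ratio of each array. Egr1 stands highest, at 1.00, and Egr2 is the one gene whose mean lies below 0, at -0.27.

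Among the EGR genes, Egr1 was higher in Gata6cKO and Egr2 did not pass. EGR1 is a zinc finger transcription factor, and its probe (chromosome 18, 35024395 to 35024454, mm9) had normalised intensities (arbitrary units, both dyes and arrays on 1 scale) of 27382 and 20459 in male and female Gata6cKO RNA, against 12102 and 11577 in male and female control RNA. Both Gata6cKO values lay above both control values. The male array gave a log2 ratio of 1.18 and the female array 0.82, against a spot-to-spot SD of 0.03 on either. Their mean was 1.00 ± 0.12 (moderated SE, n = 2 arrays; 95% confidence interval 0.74 to 1.26; limma adjusted p = 0.000226). Ordered from the highest ratio, Egr1 stood at position 61 of 19875 genes. EGR2 is a zinc finger factor best known for switching on myelin genes in Schwann cells and for patterning the hindbrain. The Egr2 probe (chromosome 10, 67004798 to 67004857, mm9) had intensities of 217 and 180 in male and female Gata6cKO RNA, against 259 and 220 in male and female control RNA. Both Gata6cKO values lay below both control values. The log2 ratio of -0.27 ± 0.11 (n = 2 arrays) did not pass (limma adjusted p = 0.298), with an interval of -0.51 to -0.04. With the deposited series values, the authors' own processed ratios, it was -0.45 and passed (limma adjusted p = 0.0282). Egr3 (chromosome 14, 70479222 to 70479281, mm9), a zinc finger factor related to EGR1, had no spot well above background in any of the 4 RNAs and was not tested. The EGR and NR4A relatives Egr4 and Nr4a3 were not above background either. Of 3 tested relatives, Nab1 and Nab2, which encode proteins that bind EGR factors and repress them, had log2 ratios of -0.15 and 0.10 and did not pass. Wt1, a zinc finger factor that binds EGR-like sites and is listed with both the relatives and the mesothelial markers, was higher in Gata6cKO by 1.22 ± 0.11 (n = 2 arrays; limma adjusted p = 1.95e-05).

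**Figure D2:**
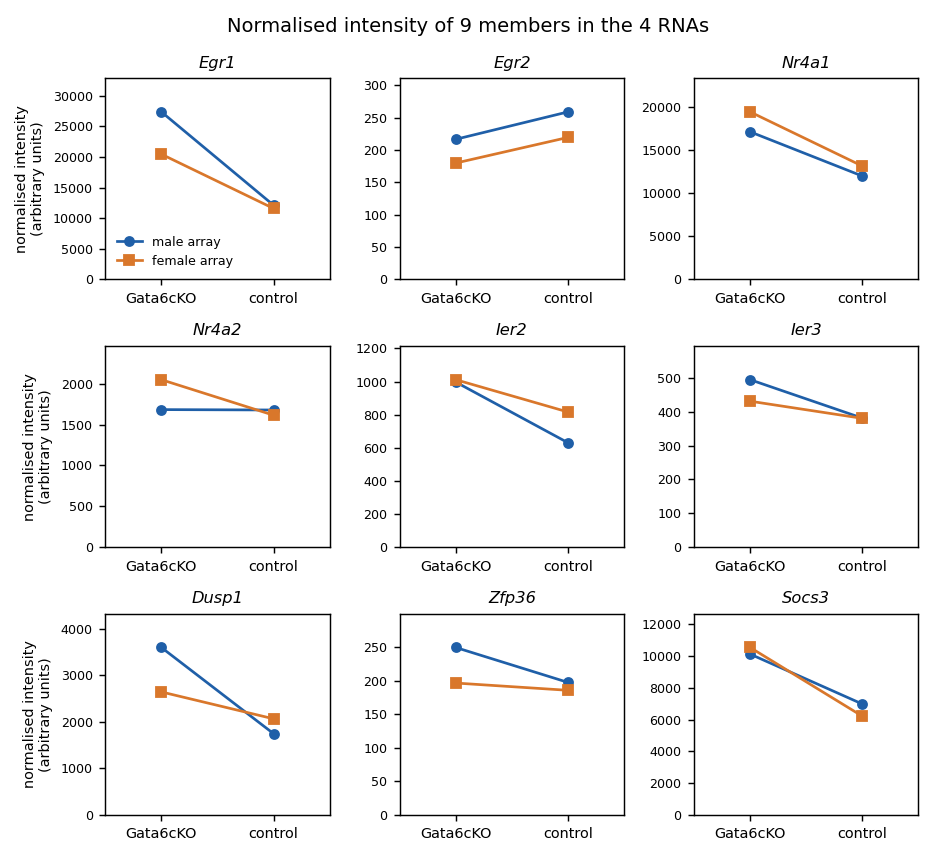
Normalised intensity of each member in the 4 RNAs, with Gata6cKO beside control, both sexes. Both Gata6cKO points lie above both control points for Egr1, Nr4a1, Nr4a2, Ier2, Ier3, Dusp1 and Socs3.

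Of the NR4A receptor genes, Nr4a1 was higher in Gata6cKO and Nr4a2 did not pass. NR4A1 (Nur77) is an orphan nuclear receptor induced by growth factors, and its probe (chromosome 15, 101105071 to 101105130, mm9) had intensities of 17168 and 19487 in male and female Gata6cKO RNA, against 12013 and 13177 in male and female control RNA. No Gata6cKO value overlapped a control value. The ratio was close to equal on both arrays, at 0.52 (male) and 0.56 (female), and the mean was 0.54 ± 0.11 (n = 2 arrays; 95% confidence interval 0.30 to 0.78), at position 307 of 19875 and with a limma adjusted p of 0.0103. NR4A2 (Nurr1) is needed for midbrain dopamine neurons. Its brighter probe, which stands for the gene in the fit (chromosome 2, 56960699 to 56960758, mm9), had intensities of 1686 and 2053 in male and female Gata6cKO RNA, against 1681 and 1617 in male and female control RNA. The female array gave a log2 ratio of 0.34 and the male array 0.00, and the mean of 0.17 ± 0.12 did not pass (95% confidence interval -0.08 to 0.43; limma adjusted p = 0.878). The other Nr4a2 probe (chromosome 2, 56959637 to 56959696, mm9) had opposite signs on the arrays, 0.48 (male) and -0.17 (female), and its intensities of 955 and 724 in Gata6cKO RNA overlapped those of 682 and 812 in control RNA.

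IER2 and IER3 are small immediate early proteins, and IER3 is known to act in cell survival and MAP kinase signalling. Ier2 (chromosome 8, 87186214 to 87186273, mm9) had intensities of 997 and 1011 in male and female Gata6cKO RNA, against 630 and 816 in male and female control RNA. The groups did not overlap, and the mean log2 ratio was 0.49 ± 0.12 (n = 2 arrays; 95% confidence interval 0.23 to 0.75; limma adjusted p = 0.0337). The male array gave 0.66 and the female array 0.31. Ier3 (chromosome 17, 35959528 to 35959587, mm9) had 496 and 432 in Gata6cKO, against 382 and 381 in control. Its log2 ratio of 0.28 ± 0.11 did not pass (95% confidence interval 0.03 to 0.52; limma adjusted p = 0.306).

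Of the brakes, the phosphatase gene Dusp1 and the inhibitor gene Socs3 passed, and the decay factor gene Zfp36 did not. DUSP1 removes phosphates from p38, JNK and ERK MAP kinases. Its probe (chromosome 17, 26642526 to 26642536, mm9, the part of the probe for which the file gives coordinates) had intensities of 3599 and 2643 in male and female Gata6cKO RNA, against 1746 and 2065 in male and female control RNA. No Gata6cKO value overlapped a control value. Male and female arrays gave log2 ratios of 1.04 and 0.36, with a spot-to-spot SD of 0.03 and 0.04, and a mean of 0.70 ± 0.15 (n = 2 arrays; 95% confidence interval 0.39 to 1.01; limma adjusted p = 0.0113). The male array exceeded the female array by 0.69 on the log2 scale, a difference that was not tested. Both array ratios of Dusp1 lay outside this interval, whose width comes mostly from the spread of all tested genes. SOCS3 binds JAKs and cytokine receptors and ends signalling through STAT3. The Socs3 probe (chromosome 11, 117827480 to 117827539, mm9) had intensities of 10125 and 10542 in male and female Gata6cKO RNA, against 6980 and 6214 in male and female control RNA. Both Gata6cKO values lay above both control values, and the mean log2 ratio was 0.65 ± 0.11 (n = 2 arrays; 95% confidence interval 0.40 to 0.90; limma adjusted p = 0.00367). The female array, at 0.76, was above the male array, at 0.54. ZFP36 binds AU-rich elements in transcripts such as that of Tnf and speeds their decay. Zfp36 (chromosome 7, 29161940 to 29161999, mm9) had 250 and 197 in Gata6cKO, against 198 and 186 in control, and these groups overlapped. Its log2 ratio was 0.21 ± 0.12 (95% confidence interval -0.04 to 0.46; limma adjusted p = 0.640). The tested ZFP36 relatives had log2 ratios of 0.09 for Zfp36l1, -0.17 for Zfp36l2 and -0.07 for Zfp36l3 and did not pass.

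The size of the ratio varied between arrays from gene to gene. Egr1, Ier2, Ier3, Dusp1 and Zfp36 had the higher ratio on the male array, and Nr4a1, Nr4a2 and Socs3 on the female array. Egr2 lay below 0 on both, at -0.26 (male) and -0.29 (female). With 1 array a sex, and dyes exchanged between arrays, these differences were not tested.

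To show the sequence ahead of the members that moved, and ahead of Egr2, the promoter windows of Nr4a1, Dusp1, Socs3 and Egr2 are given from RefSeq (build GRCm38.p6), 250 bases before to 50 bases after the transcript start, 5′ to 3′ on the gene's strand. The windows are chr15:101266596-101266895 (plus strand), chr17:26508423-26508722 (minus strand), chr11:117969317-117969616 (minus strand) and chr10:67537619-67537918 (plus strand). Windows were found for 7 of the 10 members, with 11 windows in all, of which Egr2 has 5. No window was found for Egr1, Egr3 and Ier2, so the motifs ahead of Egr1 and Ier2, which passed, are not known here. Capitals mark matches on either strand to the letters TGACG (the core of a cAMP response element), GCGTGGGCG or GCGGGGGCG (EGR sites), TTCNNNGAA (a STAT site), TGANTCA (an AP-1 site), AAAGGTCA (the NR4A response element) and AGATAA, together with its forms ending in G or starting with T (GATA sites), and to the CArG box by its name. These matches are descriptions of the letters only.
Nr4a1: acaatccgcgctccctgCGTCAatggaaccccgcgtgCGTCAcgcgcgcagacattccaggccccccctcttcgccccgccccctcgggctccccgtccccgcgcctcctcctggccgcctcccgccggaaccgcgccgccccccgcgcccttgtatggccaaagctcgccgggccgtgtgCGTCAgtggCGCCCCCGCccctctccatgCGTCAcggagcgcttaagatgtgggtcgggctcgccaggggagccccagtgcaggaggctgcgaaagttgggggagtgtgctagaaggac
Dusp1: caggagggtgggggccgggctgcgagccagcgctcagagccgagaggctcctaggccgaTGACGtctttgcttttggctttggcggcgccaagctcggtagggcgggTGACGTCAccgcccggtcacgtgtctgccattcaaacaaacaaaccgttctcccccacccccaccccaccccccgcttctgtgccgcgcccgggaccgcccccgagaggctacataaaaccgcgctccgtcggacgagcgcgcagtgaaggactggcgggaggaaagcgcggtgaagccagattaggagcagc
Socs3: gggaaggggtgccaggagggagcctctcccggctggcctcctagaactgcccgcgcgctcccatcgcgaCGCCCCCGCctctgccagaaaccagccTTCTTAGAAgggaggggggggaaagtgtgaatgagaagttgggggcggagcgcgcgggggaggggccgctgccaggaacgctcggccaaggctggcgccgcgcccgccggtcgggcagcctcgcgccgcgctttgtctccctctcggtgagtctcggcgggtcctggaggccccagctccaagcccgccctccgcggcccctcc
Egr2: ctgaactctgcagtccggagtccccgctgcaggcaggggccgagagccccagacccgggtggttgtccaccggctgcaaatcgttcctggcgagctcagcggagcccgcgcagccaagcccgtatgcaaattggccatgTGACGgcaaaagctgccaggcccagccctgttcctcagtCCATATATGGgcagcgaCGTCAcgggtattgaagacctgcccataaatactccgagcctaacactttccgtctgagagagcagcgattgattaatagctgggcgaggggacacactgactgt

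The Nr4a1 window held 4 matches to TGACG and 1 EGR site, and the Dusp1 window held 3 matches to TGACG, of which a pair overlap as TGACGTCA. The Socs3 window held 1 EGR site and 1 STAT site, and the printed Egr2 window held 1 CArG box and 2 matches to TGACG. Of the 4 other Egr2 windows, 2 overlap the printed one and hold the same matches, 1 (chr10:67537316-67537615) held a CArG box and no TGACG, and 1 (chr10:67535249-67535548) held none of the 7 motifs. Of the other members' windows, Nr4a2 held 4 matches to TGACG, and Zfp36 held 1 CArG box, 1 EGR site, 1 STAT site and 1 GATA site, while Ier3 held none of the 7 motifs. Among all 32851 promoter windows, 20.8% held TGACG, 3.47% an EGR site, 8.3% a STAT site, 1.63% a CArG box, 29.8% a GATA site, 7.81% an AP-1 site and 1.51% an NR4A response element. These shares were not adjusted for base composition. The printed windows had a GC content of 72.3% (Nr4a1), 67.0% (Dusp1), 73.3% (Socs3) and 60.0% (Egr2), against a median of 52.7% over all windows. No match in a window says only that these letters are not in it.

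The other immediate early genes were higher at a share near that of all tested genes, 3.03% against 2.22%. Of 33 tested other immediate early genes, Nfkbiz, encoding an atypical IκB protein that regulates inflammatory genes, was higher in Gata6cKO by 0.48 ± 0.11 (n = 2 arrays; limma adjusted p = 0.0224), and 0 were lower. At an unadjusted p under 0.05 the counts were 4 higher and 1 lower of 33, against 1044 higher and 1213 lower of all 19875 tested genes, and the list's median was 0.05. The AP-1 genes had 4 higher and 1 lower of 9 tested, against 2.22% and 2.36% of all tested genes, with a median of 0.38. At an unadjusted p under 0.05 their counts were 6 higher and 1 lower. Fos, encoding a partner of JUN, was higher by 1.23 ± 0.12, with intensities of 18543 and 14761 in Gata6cKO against 7284 and 6872 in control (limma adjusted p = 2.71e-05). Fosb was higher by 1.00 ± 0.12, Jun by 0.50 ± 0.11 and Atf3 by 0.61 ± 0.13 (n = 2 arrays each), while Batf, a leucine zipper factor of immune cells, fell by 0.94 ± 0.11 (limma adjusted p = 0.000226). Junb, at 0.34, did not pass (limma adjusted p = 0.124). Its probe was dim, with intensities of 145 and 141 in male and female Gata6cKO RNA, against 115 and 110 in male and female control RNA.

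**Figure D3:**
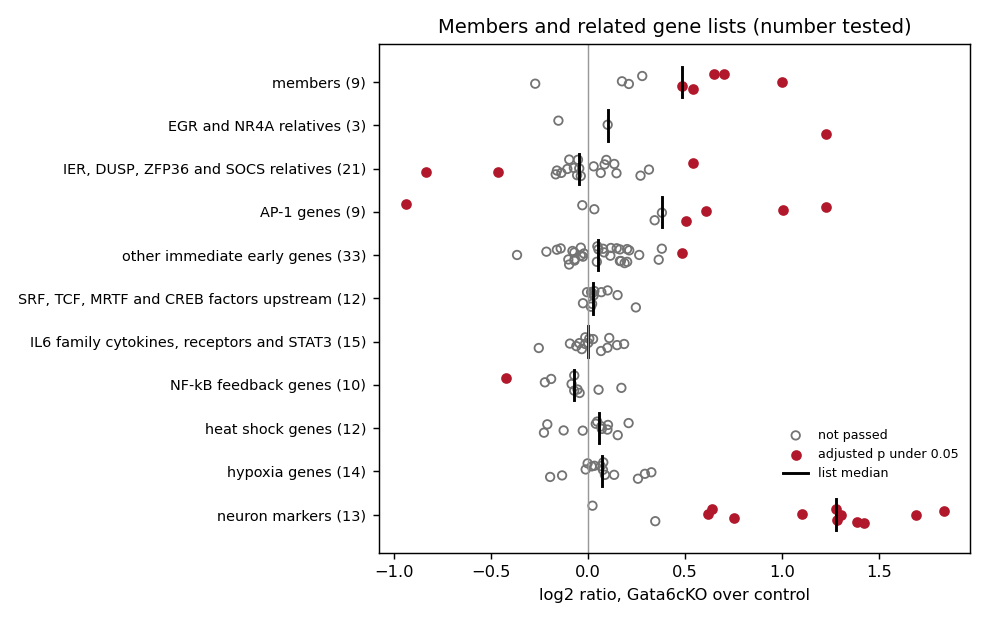
log2 ratio of Gata6cKO over control, mean of both arrays, for each tested gene of the members, the related gene lists and the neuron markers. A line marks each list's median, and filled points have a limma adjusted p under 0.05. The neuron markers have the highest median of the lists drawn, at 1.28, and the 9 tested members have a median of 0.49. The other cell type lists are not drawn, and their medians range from -0.60 (urothelium) to 0.60 (skeletal muscle).

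The IER, DUSP, ZFP36 and SOCS relatives had a median near 0, as had the factors upstream. The 3 tested EGR and NR4A relatives had a median of 0.10, with 0.37 on the male array and -0.17 on the female array. Of 21 IER, DUSP, ZFP36 and SOCS relatives tested, 1 was higher and 2 were lower, with a median of -0.05: Dusp8 at 0.54 ± 0.11 was higher, and Dusp10 (-0.83 ± 0.12) and Dusp4 (-0.46 ± 0.11), phosphatases of JNK, p38 and ERK, were lower (n = 2 arrays; limma adjusted p = 0.0103, 0.000816 and 0.0276). None of 12 SRF, TCF, MRTF and CREB factors passed in limma, with 1 higher at an unadjusted p under 0.05 and a median of 0.03, and none of 15 IL6 family cytokines, receptors and STAT3 passed, with 1 lower at an unadjusted p under 0.05 and a median of 0.00. Srf had a log2 ratio of 0.02 ± 0.12 and Stat3 of -0.06 ± 0.12 (n = 2 arrays each). Of 10 NF-κB feedback genes, Ccl2, a chemokine that draws monocytes, was lower by 0.42 ± 0.11 (n = 2 arrays; limma adjusted p = 0.0488). Heat shock genes (12 tested, median 0.06) and hypoxia genes (14 tested, median 0.07) gave 0 calls in limma, with 0 and 3 genes at an unadjusted p under 0.05.

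**Figure D4:**
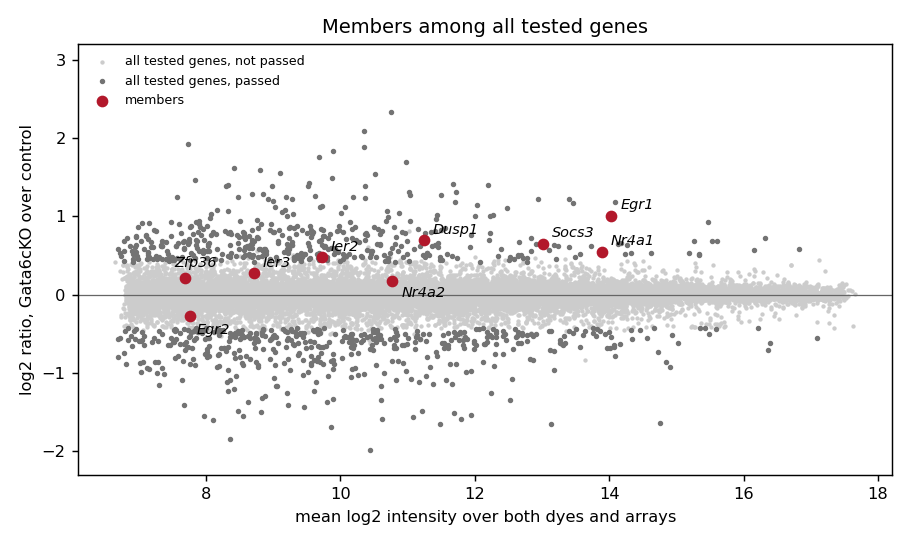
Mean intensity against the log2 ratio of Gata6cKO over control for the tested genes, both axes on the log2 scale, with the members in red and other genes that passed in dark grey. Egr1 lies at 1.00 and Egr2 at -0.27.

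Marker lists of the tissue and of other cell types differed in their counts. Urothelium markers (16 tested) had 0 higher and 10 lower, with a median of -0.60, and their summed intensity was 227708 and 207740 in male and female Gata6cKO RNA, against 296648 and 276974 in male and female control RNA. Neuron markers had 11 of 13 higher, with a median of 1.28, and their sum was 53577 and 50728 in Gata6cKO, against 32942 and 33890 in control. Nefm was higher by 1.83 ± 0.11 and Nefl by 1.69 ± 0.11; both encode neurofilament subunits. Ureteric mesenchyme markers were measured for 11 of 11 genes, with sums of 239723 and 256632 in Gata6cKO, against 239889 and 269282 in control. Only Aldh1a2, an enzyme that makes retinoic acid, passed among them, and it was higher (1.18 ± 0.11). The list's median was -0.20, with 3 of 11 ratios above 0, against 9784 of all 19875 tested genes. Smooth muscle markers had 1 higher and 4 lower of 11, with a median of -0.15. Endothelium markers had 1 higher and 1 lower of 10, and mesothelium markers 1 higher and 3 lower of 6. Of those 3, Upk3b and Krt19 also stand among the 10 lower urothelium markers, so these lists are not independent. Skeletal muscle markers had 5 of 9 higher and erythroid markers 5 of 9 lower, with medians of 0.60 and -0.46. Macrophage markers (11 tested) gave 0 calls in limma, with 1 at an unadjusted p under 0.05, and Schwann and glia markers had 2 higher and 1 lower of 12, with sums of 113293 and 121850 in Gata6cKO, against 117879 and 109102 in control. The part of these cell types in the values of the members was not tested. The Gata6 probe was itself higher in the RNA labelled Gata6cKO (0.65 ± 0.12; limma adjusted p = 0.00573), and whether it lies in the floxed part was not settled, so it checks nothing about the labels. In each channel 67.2% to 68.5% of spots stood well above background, and the number of arrays limits the precision.

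Under 11 other settings of background, normalisation, filter, probe choice and model, every tested member kept its sign. The changes of filter, the intensity trend, separate channels and no replicate block left the members' ratios unchanged, so no sign could change there. The mean of a gene's kept probes altered only the ratio of Nr4a2. Egr1 passed in 11 of 11 settings and Socs3 in 10, Nr4a1 in 9, and Dusp1 and Ier2 in 7 each. Median centring ended the calls of Dusp1, Ier2, Nr4a1 and Socs3, at limma adjusted p-values of 0.335, 1.00, 1.00 and 0.563. The calls of Dusp1 and Ier2 also ended without the filter on dim probes (limma adjusted p = 0.164 and 0.140), with separate channels (0.0707 and 0.153) and with no replicate block (0.0646 and 0.135), and that of Nr4a1 with separate channels (0.0501). Ier3, Nr4a2 and Zfp36 passed in none.

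**Figure D5:**
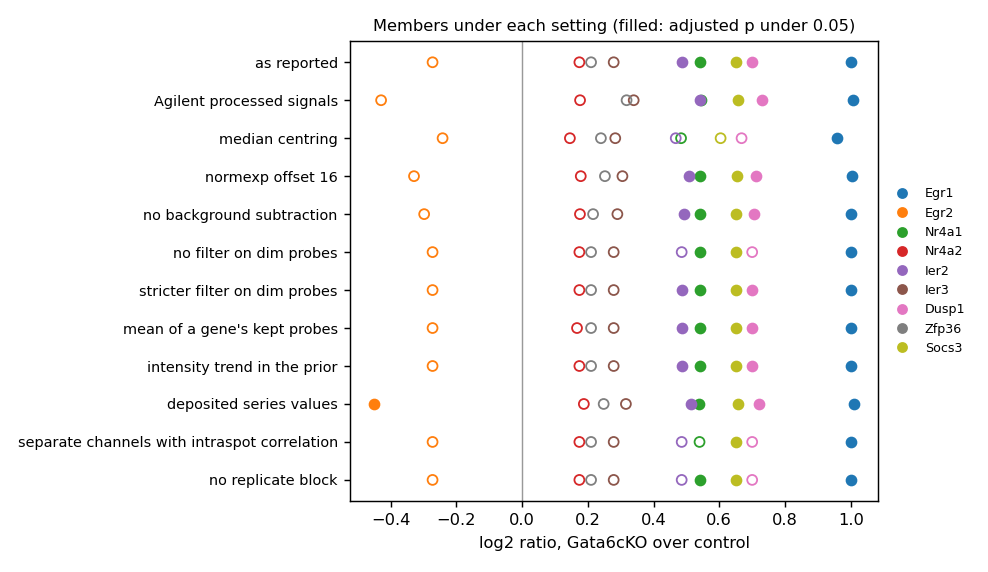
log2 ratio of Gata6cKO over control for each tested member under the reported settings and 11 alternatives, filled where the limma adjusted p is under 0.05. Egr1 is filled at every setting and ranges from 0.96 to 1.01, while Egr2 is filled only with the deposited series values, at -0.45.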

How the data were processed

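Total RNA of 4 ureter samples was hybridised to 2 two-colour Agilent arrays, from 150 ng of RNA each per the labels' protocols. Per the file headers, the deposited scanner files give raw spot intensity and local background per dye. They also give processed signals and log10 ratios, which the authors made with Agilent Feature Extraction 10.7.3.1 per the submitters' processing notes. The authors' deposited series values are a score that, compared with the scanner files, is a signed fold of Gata6cKO over control. After conversion to log2 it correlated with the processed log2 ratios at r = 0.985 and 0.980.

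Intensities were background corrected with normexp (offset 50) and normalised by loess within arrays in R 4.3.3 with limma 3.58.1. The offset compresses the ratios of dim genes. Probes were kept with at least 3 of 4 spots well above background in 1 genotype on both arrays (26200 probes). The brightest probe stood for each of 19875 genes. The sign was turned on the dye-swapped array, each array being its own pair. The fit (lmFit, eBayes) had 1 residual degree of freedom beside 12.2 prior ones, and p-values were adjusted by Benjamini-Hochberg. The fit was tested on simulated data, where the share of false calls among genes that passed exceeded the threshold in some draws, so the adjusted p-values are approximate and can be too small. The pairing is the array itself, which holds both genotypes. Symbols follow a RefSeq table of GRCm38.p6, with 28328 probes named by accession. The members and lists were chosen with earlier results of these data known. Named were all members, Gata6, list genes that passed (at most 6 a list), EGR, NR4A and ZFP36 relatives, Srf, Stat3, Fos, Fosb, Jun, Junb and at most 2 markers a cell type. There were 0 unused per-sample columns.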

Additional observations from a re-analysis of the deposited data

Results flagged for a closer look

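The less bright Nr4a2 probe, and the probes that stand for Nab2, Srf, Stat3 and Zfp36l2 in the fit, had ratios of Gata6cKO over control with opposite signs on the male and the female array, and none of these 5 genes passed the limma test. That Nr4a2 probe had 0.48 (male) and -0.17 (female). Nab2 had 0.37 (male) and -0.17 (female), Srf had 0.22 (male) and -0.18 (female), Stat3 had -0.23 (male) and 0.11 (female), and Zfp36l2 had 0.017 (male) and -0.35 (female). The difference between arrays was not tested, and sex cannot be told apart from array and dye orientation.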

How the results depend on the processing

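Signs of the 9 tested members held in each of the 11 alternatives, and all 5 calls held in 7 of them. Alternatives that change only the filter or the model use the same ratios, so signs could not change in them. The median log2 ratio of the members ranged from 0.34 to 0.52 when either array was left out, and a count of calls then has no residual degree of freedom. The count of 5 members higher in Gata6cKO was 3 without the filter on dim probes, 1 with median centring, 2 with separate channels and 3 with no replicate block, that is, without the array as the pair. In the reported fit on the ratio of each array, 5 passed. The separate channels setting also takes the array into account, and its correlation between the dyes of a spot was -0.04. Of members lower, 1 passed with the deposited series values, against 0. All genes higher and lower numbered 90 and 100 with median centring, 255 and 231 with no filter, 680 and 804 with deposited series values, and 272 and 266 with separate channels, against 441 and 470. With no replicate block 300 genes were higher and 296 lower. The cause was not tested. Signal over background limits dim probes such as those of Egr2, Egr3 and Zfp36.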
